A study of Mus musculus with 20 samples.

Results

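The cytosolic ribosomal protein genes were examined in mouse cerebral cortex, as every gene of the messenger RNA table whose symbol begins with Rpl or Rps and a digit, together with Rplp0, Rplp1, Rplp2 and Rpsa, and without the Rps6k kinases. This naming rule selected 103 of 21949 genes, with 210 of 50660 transcripts. Of these, 31 encode proteins of the small ribosomal subunit and 46 proteins of the large subunit. Another 8 are paralogs, 17 carry pseudogene symbols, and 1, Rps19bp1, encodes a protein that binds a subunit. RNA was sequenced from frozen cortex of PS19 mice (TG) and of wild-type mice (WT), all of the strain (C57BL/6 x C3H)F1, at 10 or 3 months of age. TG mice carry the transgene Tg(Prnp-MAPT*P301S)PS19Vle, a mutant human tau under the Prnp promoter. The groups TG10M, WT10M, TG03M and WT03M hold 5 libraries each. The labels number the libraries, and they do not state that each came from a separate animal, so that p-values measure the spread between these samples. In whole cortex, fewer cells of a type and less RNA per cell cannot be told apart.

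Cytosolic ribosomes are built from ribosomal RNAs and one copy of most ribosomal proteins. The small subunit decodes the messenger RNA and the large subunit forms the peptide bond. Ribosomal protein mRNAs are among the most abundant in every cell, and in neurons they are also carried into dendrites and axons. In vertebrates they start with a C followed by a run of pyrimidines, the terminal oligopyrimidine (TOP) tract, through which mTORC1 and the RNA-binding protein LARP1 control their translation.

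This signature was read at the annotated start sites. RefSeq promoters (build GRCm38.p6) were matched for 66 of the 103 genes, of which 57 were subunit genes with 67 promoters. A C at the annotated start, followed by at least 4 bases that are each C or T and read on the transcribed strand, was present in 13 of the 67 promoters of subunit genes, or 19.4%. The same letters stood at the start of 2.51% of all 32851 promoters. Within 5 bases of the start they were found in 29 of the 67, or 43.3%, against 18.3% of all promoters. The windows below run from 15 bases before to 15 bases after the start, with capitals for the pyrimidine run found within 5 bases of it. Rps27, Rps21 and Rpl38 are shown as the members with the highest levels, Rpl12, Rps2 and Rps16 for their stepwise values, and Rpl19, Rpl24, Rpl6 and Rps13 for their differences between genotypes.
Rps27 (chr3:90213634-90213663, minus strand): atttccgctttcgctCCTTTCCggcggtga
Rps21 (chr2:180257364-180257393, plus strand): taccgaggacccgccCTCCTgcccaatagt
Rpl38 (chr11:114668565-114668594, plus strand): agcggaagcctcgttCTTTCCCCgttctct
Rpl12 (chr2:32961697-32961726, plus strand): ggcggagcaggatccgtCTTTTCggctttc
Rps2 (chr17:24720048-24720077, plus strand): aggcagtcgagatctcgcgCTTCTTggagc
Rps16 (chr7:28350674-28350703, plus strand): cccgcttctgtcgtgacgtagcactcaatg
Rpl19 (chr11:98026695-98026724, plus strand): tgaccaaacgCCCTCactgcgcatgtgcgc
Rpl24 (chr16:55966260-55966289, plus strand): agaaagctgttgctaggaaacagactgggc
Rpl6 (chr5:121204486-121204515, plus strand): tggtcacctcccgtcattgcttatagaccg
Rps13 (chr7:116334176-116334205, minus strand): gagagcaaacgtcggtgagtggcgtcactt
The run lies at the start itself in Rps27, Rps21 and Rpl38, downstream of it in Rpl12 and Rps2, and upstream in Rpl19. Rps21 and Rpl19 each have another annotated promoter in the table, which is not shown; that of Rps21 holds no such run within 5 bases of its start, while that of Rpl19 holds one upstream. No such run lies within 5 bases of the start in Rps16, Rpl24, Rpl6 or Rps13, which says nothing of the factors that act there.

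Levels are FPKM, the number of sequenced fragments scaled to transcript length and to all mapped fragments of the library, summed over the transcripts of a gene. All 77 subunit genes were detected, with mean levels over the 20 libraries between 35.2 FPKM in Rps20 and 2673 FPKM in Rps27 and a median of 370.0 FPKM. Small-subunit genes had a median level of 399 FPKM and large-subunit genes one of 354 FPKM. The highest members were Rps27 (a zinc-finger protein of the small subunit; chr3:90212522-90213651 on GRCm38), Rps21 (2282 FPKM; chr2:180257377-180258445) and Rpl38 (2139 FPKM; chr11:114668524-114672331), a large-subunit protein whose loss alters the mouse axial skeleton. The lowest subunit genes were Rps20 (chr4:3831334-3835665) and Rpl12 (120.3 FPKM; chr2:32961559-32965345). Levels ran lower where the listed transcript was longer, with a Spearman's rho of -0.67 across the 77 genes, which share the same libraries and the same division by length. The table lists Rps20 with a transcript of 3706 bases and Rps27 with one of 345 bases, and the median over subunit genes was 751 bases.

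**Figure D1:**
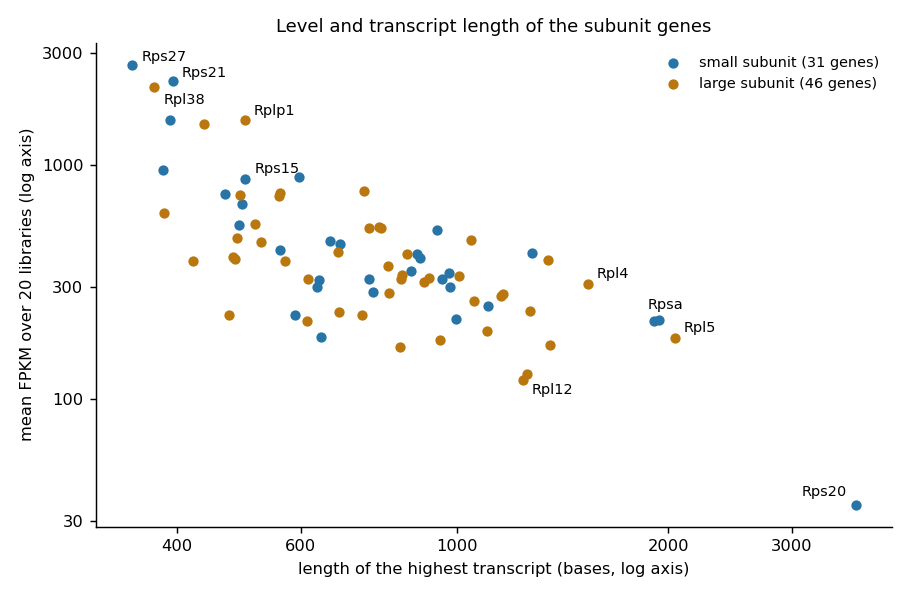
Mean level over the 20 libraries (FPKM, log axis) against the length of the highest transcript (bases, log axis) for the 31 small-subunit and 46 large-subunit genes, 1 point per gene. Rps27, Rps21 and Rpl38 lie at the short, high end and Rps20, at 35.2 FPKM, at the long, low end.

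Most subunit genes varied little between libraries. The coefficient of variation over the 20 libraries had a median of 10.6% and was under 15% in 64 of 77 genes. The steadiest were Rpl4, which lines part of the exit tunnel (3.24%; chr9:64173375-64178666), Rps15 (4.57%; chr10:80292453-80294114) and Rpl35 (4.75%; chr2:39001580-39005624). Rpl4 had 305, 312, 309.9, 316 and 309 FPKM in TG10M, 302, 294, 311, 298 and 327 FPKM in WT10M, 333, 316, 323, 314 and 305 FPKM in TG03M and 312, 300.5, 303, 319 and 301 FPKM in WT03M. These ranges overlap for every pair of groups. The most variable subunit genes were Rpl12 (72.9%), Rps2 (56.2%) and Rpl26 (36.4%), which took separate levels in different libraries and are described further on.

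Facts of the series bear on these values. The spacing of the lowest values of long genes with 1 transcript put the depth at about 22500000 to 30100000 fragments in 19 libraries, and the spacing was not clear in 1. The median depth of about 24700000 fragments gives about 6854 fragments for a subunit gene of median level and length, a counting error of 1.21%. Prnp, whose promoter drives the transgene, was at 736 to 841 FPKM in TG10M against 412 to 528 FPKM in WT10M, and at 695 to 812 FPKM in TG03M against 426 to 458 FPKM in WT03M, so that every TG library lay above every WT library. On the first principal component of all tested genes, 3 libraries stood apart (replicates 1 and 5 of TG10M and replicate 5 of WT10M, at 26.2 to 30.9 against -12.1 to 2.52 in the other 17). They are called the 3 libraries apart below. These 3 and replicates 2 to 5 of TG03M had 13.9 to 20.5 FPKM of the chaperone gene Hsp90aa1, against 532 to 687 FPKM in the other 13. The labels give no batch for either set. Markers of excitatory neurons summed to 761 to 1004 FPKM in TG10M, 737 to 1070.1 FPKM in WT10M, 1027 to 1267 FPKM in TG03M and 1026 to 1141 FPKM in WT03M. Choroid plexus markers summed to 104 to 554 FPKM in TG10M, 93.7 to 679 FPKM in WT10M, 99.2 to 1304 FPKM in TG03M and 89.1 to 121 FPKM in WT03M.

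Together the 77 subunit genes held 7.48 to 9.85% of all messenger RNA FPKM. The share was 9.46, 8.54, 8.29, 8.31 and 9.22% in TG10M, against 8.67, 8.77, 9.16, 8.94 and 9.85% in WT10M. In TG03M it was 8.68, 7.76, 8.75, 8.32 and 7.48%, against 8.77, 8.76, 9.005, 8.96 and 8.65% in WT03M. The groups overlapped at both ages. The 3 libraries apart had the highest shares of all, 9.22 to 9.85%, against 7.48 to 9.16% in the other 17. Other gene sets split along the same libraries without overlap. Summed markers of excitatory neurons were at 737 to 765 FPKM in the 3 and 993 to 1267 FPKM in the other 17. The markers did not vary alike. In WT10M Camk2a ranged from 101 to 230 FPKM and Slc17a7, the highest marker, from 257 to 313 FPKM. Translation factors and other genes with TOP mRNAs summed to 4307 to 4464 FPKM in the 3 and 3641 to 4091 FPKM in the other 17. In such sums the highest genes weigh most. Eef1a1 averaged 1751 ± 258 FPKM in TG10M and 1630 ± 265 FPKM in WT10M (SD over libraries). Eef2, the next highest of that list, averaged 399 ± 14.7 FPKM and 393 ± 16.4 FPKM. How many genes of the list split was not counted. Mitochondrial ribosomal protein genes summed to 2707 to 2823 FPKM in the 3 and 2383 to 2593 FPKM in the other 17. Ribosome biogenesis genes went the other way, summing to 688 to 696 FPKM in the 3 and 721 to 942 FPKM in the other 17. Their sum was also low in TG03M, with a median of 723 FPKM, against 910 to 942 FPKM in WT03M. It includes Rrp1, at 1.32 to 3.02 FPKM in the 7 libraries low in Hsp90aa1 and 144 to 167 FPKM in the other 13. Genes of mTORC1, S6 kinase and 4E-BP signalling were at 667 to 691 FPKM in the 3 and 721 to 785 FPKM elsewhere. Initiation factor genes overlapped, at 2136 to 2236 FPKM in the 3 and 2039 to 2224 FPKM in the other 17. The part of these gene sets in the ribosomal share was not tested. Gene by gene, 37 of the 77 subunit genes had their 3 highest values in these 3 libraries, against 9.19% of all tested genes. The 2 lowest shares belonged to replicates 2 and 5 of TG03M. The mitochondrially encoded genes took 4.24 to 6.30% in TG10M, 3.21 to 6.37% in WT10M, 4.37 to 8.02% in TG03M and 3.02 to 3.27% in WT03M, and their part in the subunit share was not tested. With those genes left out of the total, the subunit share was 8.73 ± 0.528% in TG03M and 9.12 ± 0.149% in WT03M (SD over libraries).

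The balance between subunits was also read. The summed level of small-subunit genes over that of large-subunit genes was 0.821 to 0.850 in TG10M, below all of WT10M (0.858 to 0.889). At 3 months it was 0.835 to 0.876 in TG03M and 0.853 to 0.884 in WT03M, and the groups overlapped. With the highest member, Rps27, left out of the sum, the groups overlapped at 10 months too, at 0.683 to 0.720 in TG10M and 0.705 to 0.763 in WT10M. With Rps16 left out in its place they did not overlap, at 0.810 to 0.846 in TG10M and 0.851 to 0.875 in WT10M, and nor did they with Rps21 left out. The ratio is given as a description, without a test.

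**Figure D2:**
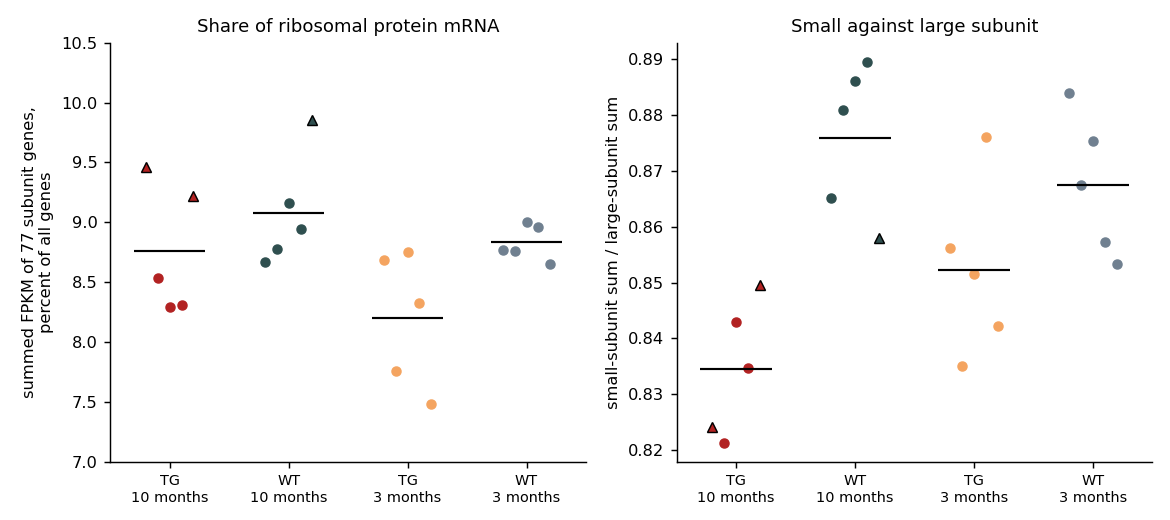
Left, summed FPKM of the 77 subunit genes as a percent of all genes (axis from 7%); right, the summed small-subunit level over the summed large-subunit level (axis does not start at 0), 1 point per library, with bars for group means and outlined triangles for the 3 libraries apart. The triangles hold the 3 highest shares, and every TG10M ratio lies below every WT10M ratio.

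The comparison of TG with WT cortex at 10 months asks whether ribosomal protein mRNAs differ once the tau transgene has been expressed for longer. No member passed the test at this age: 0 of 88 tested members were called, against 0.634% of all 13722 tested genes (limma, Benjamini-Hochberg adjusted p under 0.05). Members tested are those with a mean of at least 0.5 FPKM, which 15 of the 103 did not reach, none of them a subunit gene. At an unadjusted p under 0.05 there were 7 of 88 members, or 7.95%, against 14.1% of all tested genes. Differences are TG minus WT on the log2(FPKM + 0.5) scale, on which those of low genes are understated. Their median over members was 4e-05, with 44 members positive and 44 negative, and 77 of 88 lay within 0.2 of no difference. The median standard error of a member was 0.084. In simulated data on these 13722 genes, with independent values, 76 of 100 genes changed by 0.5 at this age were called. How often such a change would be called in members, many of which vary together between libraries, was not tested.

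The members with an unadjusted p under 0.05 at 10 months included Rpl23a, Rpl24, Rpl29 and Rps19bp1, all higher in TG10M, and Rps13 and Rps21, lower. Rpl23a (chr11:78180932-78183584), which sits at the exit of the peptide tunnel where the signal recognition particle docks, had 893, 776, 833, 812 and 899.6 FPKM in TG10M, against 638, 680.5, 673, 651 and 956 FPKM in WT10M. The groups overlapped through replicate 5 of WT10M, one of the 3 libraries apart, and the other 4 WT10M libraries lay below every TG10M library. Its difference was 0.24 (SE 0.088, adjusted p = 0.218). Rpl24 (chr16:55966275-55971435), which takes part in a bridge between the subunits, had 531, 422, 441, 429.9 and 521 FPKM in TG10M, against 367, 362, 391, 371 and 545 FPKM in WT10M, a difference of 0.21 (SE 0.092, adjusted p = 0.305). In Rpl24 as well, the 1 WT10M library inside the TG10M range was replicate 5.

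Rps13 (chr7:116331505-116334195), a small-subunit protein, had 211, 216, 198, 219 and 226 FPKM in TG10M, against 223, 229, 237, 246 and 233 FPKM in WT10M. The groups overlapped, and the difference was -0.13 (SE 0.039, adjusted p = 0.157). Rps21 had 2538, 1965, 1974, 1981 and 2493 FPKM in TG10M, against 2311, 2375, 2636, 2562 and 2767 FPKM in WT10M, a difference of -0.22 (SE 0.10, adjusted p = 0.333). The 3 TG10M libraries that were not apart lay below all of WT10M. Rpl29 (chr9:106429454-106431568) had 228, 224, 245, 231 and 243 FPKM in TG10M, against 129.9, 212, 247, 220.3 and 142 FPKM in WT10M, where replicates 1 and 5 were well under the rest. Rps19bp1, which encodes a nucleolar protein that binds Rps19, differed by 0.16 (SE 0.071, adjusted p = 0.325). Groups that did not overlap were found in 2 members, both lower in TG10M, against 0.729% of tested genes lower and 1.65% higher. They were Rpl34, at 350.2 to 397 FPKM in TG10M and 407 to 423 FPKM in WT10M, and the paralog Rpl22l1.

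Leaving out the 3 libraries apart brought calls at 10 months. Of 88 members, 5 were then called, against 2.38% of all tested genes, with 3 TG10M libraries and 4 WT10M libraries in the fit. Among them, Rpl23a rose by 0.29 (SE 0.06, adjusted p = 0.0194), Rpl24 by 0.21 (SE 0.042, adjusted p = 0.0176) and Rpl6 by 0.19 (SE 0.04, adjusted p = 0.0208). Rps16, a small-subunit protein whose tail reaches the decoding site, fell by 0.37 (SE 0.086, adjusted p = 0.034). Between the libraries apart alone, 2 of TG10M and 1 of WT10M, the difference of Rpl23a was -0.093 and that of Rpl24 -0.052, so the direction was not the same there. With replicate 5 of WT10M alone left out, 10 of 88 members were called, 9 higher and 1 lower, a share close to the 11.7% of all tested genes. The 9, all of the large subunit, included Rpl23a, Rpl24, Rpl19, Rpl6, Rpl10, Rpl10a, Rpl15 and Rplp0, and the 1 was Rps16. This setting keeps replicates 1 and 5 of TG10M, so that in it the genotype and the libraries apart cannot be told apart. With libraries weighted by their quality 5 were called, among them Rpl23a, Rpl24 and Rpl19, higher, and Rps13, lower, against 6.89%. Without the 7 libraries low in Hsp90aa1, 7 were called, against 2.40%. Beside these differences, 2 of 10 tested astrocyte markers and 3 of 11 microglia markers rose at 10 months in the fit of all 20 libraries, in which 0.634% of all tested genes were called. Astrocyte markers summed to 1513 to 1675 FPKM in TG10M against 1229 to 1400.1 FPKM in WT10M. Microglia markers summed to 332 to 409 FPKM in TG10M against 205 to 328 FPKM in WT10M. Their part in the ribosomal protein values was not tested.

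At 3 months, the comparison of TG with WT cortex again gave 0 called members of 88, against 0.299% of all tested genes (limma). Many members nonetheless leaned one way. The difference was negative in 65 of 88 members and positive in 23, with a median of -0.076, where the median of all tested genes was -0.0021. This lean was not seen without the 7 libraries low in Hsp90aa1, which leaves 1 library of TG03M: the difference was then negative in 42 members and positive in 46, with a median of 0.0037. With all 20 libraries, an unadjusted p under 0.05 was reached by 25 members, or 28.4%, 20 of them lower in TG03M, against 10.6% of all tested genes. Those lower included the small-subunit genes Rps3, at -0.20, Rps14, at -0.20, Rps28, at -0.17, Rps9, at -0.16, and Rps18, at -0.16, and the large-subunit genes Rpl37a, at -0.21, Rpl30, at -0.13, and Rpl23, at -0.11. Small-subunit genes had a median of -0.11, with 26 of 31 negative, and large-subunit genes one of -0.058, with 29 of 46 negative. Mitochondrial ribosomal protein genes, which serve another ribosome, had a median of -0.016 over 77 genes. The 775 other tested genes with a longest transcript of at most 1000 bases had one of 0.00065. In simulated data at 3 months, again with independent values, 73 of 100 genes changed by 0.5 were called, and the rate for members was not tested. Choroid plexus markers were higher in TG03M in 10 of 10 tested genes with a median difference of 0.95, none of them called, and their part in the member values was not tested.

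Groups did not overlap at 3 months in 9 members. Of these, 5 were higher in TG03M, among them Rpl23a, Rpl24, Rpl19 and Rpl6, against 2.01% of all tested genes with such a gap upward. Rps16, Rps13, Rps27a and Rpl9 were lower, against 2.47% downward. Rpl23a had 727, 795, 839.6, 929 and 796 FPKM in TG03M, against 617, 655, 658, 649 and 661 FPKM in WT03M, a difference of 0.33 (SE 0.088, adjusted p = 0.145). Rpl24 had 429, 425, 447, 448 and 398 FPKM in TG03M, against 380.4, 386, 387, 390.3 and 369 FPKM in WT03M, a difference of 0.16 (SE 0.092, adjusted p = 0.543). Rps13 had 223, 209, 225, 226 and 215 FPKM in TG03M, against 242, 237, 244, 246 and 238 FPKM in WT03M, a difference of -0.14 (SE 0.039, adjusted p = 0.176). Each of these 3 members has a gap between the groups that none of the libraries crosses, and none passed the adjusted threshold.

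Rps16 (chr7:28350652-28353155) had 272, 227, 274, 213 and 200.4 FPKM in TG03M, against 337, 309, 326, 321 and 314 FPKM in WT03M. Rps27a (chr11:29545846-29548109), made as a fusion of ubiquitin with a small-subunit protein, had 350.2, 309, 332, 291 and 250.4 FPKM in TG03M, against 369, 364, 367, 381 and 362 FPKM in WT03M. Both were lower in every TG03M library than in any WT03M library. Rps15a (chr7:118104372-118116188) averaged 162 ± 17.4 FPKM in TG03M and 189.9 ± 7.32 FPKM in WT03M, a difference of -0.23 (SE 0.066, adjusted p = 0.171). Rpl21 (chr5:146832890-146837032) had 367, 378, 389, 291 and 364 FPKM in TG03M, against 230.4, 241, 237, 251 and 335 FPKM in WT03M, a difference of 0.47 (SE 0.15, adjusted p = 0.213). In Rpl21 replicate 5 of WT03M lay inside the TG03M range. At 10 months Rpl21 had 439, 266, 361, 369.5 and 309 FPKM in TG10M, against 227, 326, 342, 221 and 331 FPKM in WT10M, a difference of 0.28 (SE 0.15, adjusted p = 0.397). None of the 3-month libraries is among the 3 apart, but the fit shares its estimate of the spread with them. Without those 3, 12 of 88 members were called at 3 months, 5 higher and 7 lower in TG03M, against 3.45% of all tested genes. The 5 that rose included Rpl23a, Rpl24, Rpl19 and Rpl6, and the 7 that fell were Rps16, Rps13, Rps15a, Rps27a, Rpl9, Rplp2 and Rpl12. In that fit Rpl23a rose by 0.33 (SE 0.05, adjusted p = 0.00134) and Rpl24 by 0.16 (SE 0.035, adjusted p = 0.0135), while Rps16 fell, with a difference of -0.45 (SE 0.071, adjusted p = 0.002), as did Rps13, with -0.14 (SE 0.035, adjusted p = 0.0393), and Rps27a, with -0.28 (SE 0.065, adjusted p = 0.0253). With TG03M and WT03M fitted alone, 4 were called, among them Rpl23a, higher, and Rps16 and Rpl12, lower, against 1.61% of all tested genes. With libraries weighted by their quality 3 were called, against 1.90%, without replicate 5 of WT10M 2, against 0.772%, and without replicate 1 of TG03M 4 (Rps15a, Rplp2, Rpl12 and Rpl22l1, all lower), against 0.787%. Of the TG03M libraries, replicates 2 to 5 are low in Hsp90aa1 and no WT03M library is, so that this split and the genotype cannot be told apart in 4 of the 5 TG03M libraries. Replicate 1, which is not low in Hsp90aa1, had 727 FPKM of Rpl23a and 429 FPKM of Rpl24, above every WT03M library. In Rps16, Rps13 and Rps27a the same replicate lay below every WT03M library. It lay inside the WT03M range in Rplp1, Rplp2, Rpl22l1 and Rpl12. With the 7 libraries left out that replicate stands alone for TG03M, and 1 member, Rpl26, was called, against 0.0656% of all tested genes.

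The differences between TG and WT at 10 and at 3 months come from separate libraries, fitted with a shared spread. Over the 88 tested members the difference at 10 months and that at 3 months had a Spearman's rho of 0.78, and of 0.66 without the 3 libraries apart. Over all 13722 tested genes rho was 0.39 and 0.40. The sign was the same at both ages in 59 of 88 members, or 67.0%, against 63.2% of all genes. Without the 3 libraries apart it was the same in 76.1% of members, against 64.4% of all genes. The points share the libraries of each group, and genes are not independent replicates, so these are descriptions. All 5 members called at 10 months without the 3 libraries apart were among the 12 called at 3 months in the same fit. That is 100% of the shorter list and 41.7% of the longer. The matching overlap was not counted for all tested genes. The lists also share the spread estimated for each gene, so whether the overlap is particular to members was not tested.

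**Figure D3:**
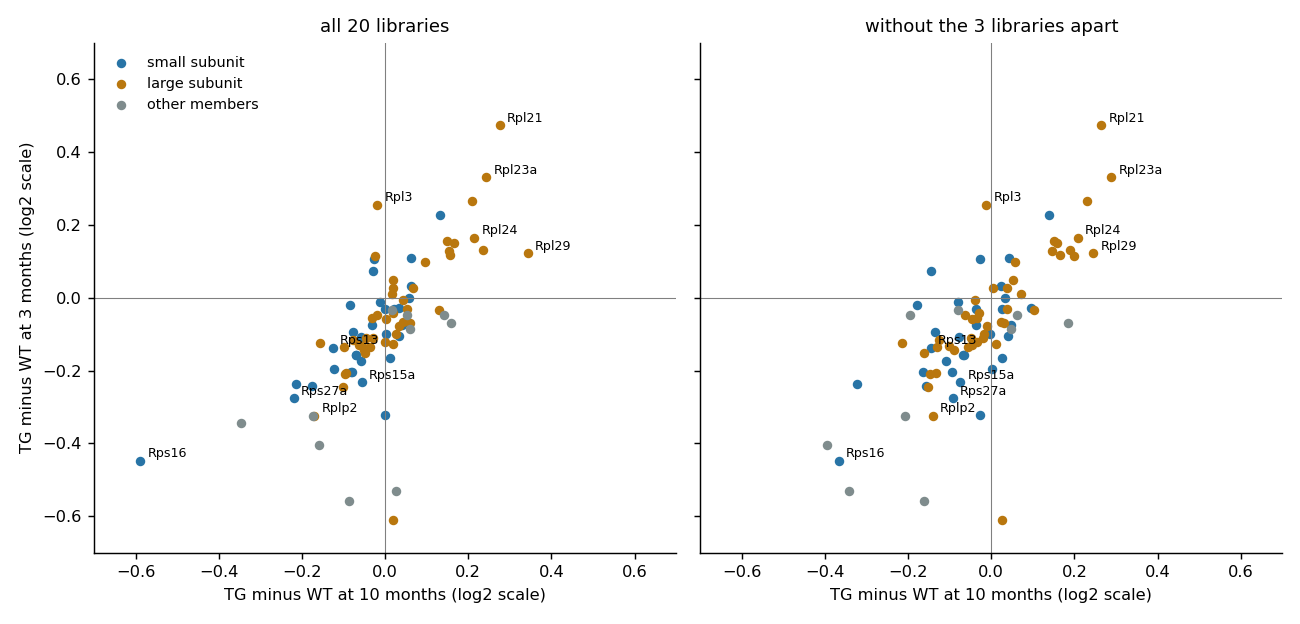
TG minus WT difference of each tested member at 10 months (horizontal) and at 3 months (vertical), both on the log2 scale, from all 20 libraries (left, 86 members) and with the 3 libraries apart left out at 10 months (right, 85 members). Members beyond 0.65 on either axis are not drawn (Rpl12 and Rps26-ps1 in both panels, Rps12-ps3 on the right); Rpl21 and Rpl23a lie at the upper right and Rps16 at the lower left in both.

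Rpl19 (chr11:98026710-98030492), which contacts the small subunit, had 643, 538, 545, 534 and 652 FPKM in TG10M and 477, 480.2, 504, 470.2 and 679.9 FPKM in WT10M. At 3 months it had 545, 547, 574, 585 and 513 FPKM in TG03M and 486, 498, 503, 499.9 and 499.9 FPKM in WT03M. The difference was 0.17 at 10 months and 0.15 at 3 months (adjusted p = 0.382 and 0.549, limma). Rpl6 (chr5:121204481-121209241) differed by 0.23 (SE 0.12, adjusted p = 0.392) at 10 months and by 0.13 (SE 0.12, adjusted p = 0.745) at 3 months. In both genes the 3 highest values of all libraries belonged to the 3 libraries apart, on either side of the genotype. Once the 3 libraries apart are set aside, every TG library lay above every WT library at each age in Rpl23a, Rpl24, Rpl19 and Rpl6. These large-subunit members were named for their differences in these data. The share of all tested genes with this order at each age was not counted. At 3 months most TG03M libraries, and no WT03M library, are low in Hsp90aa1. In those libraries that split and the genotype cannot be told apart.

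**Figure D4:**
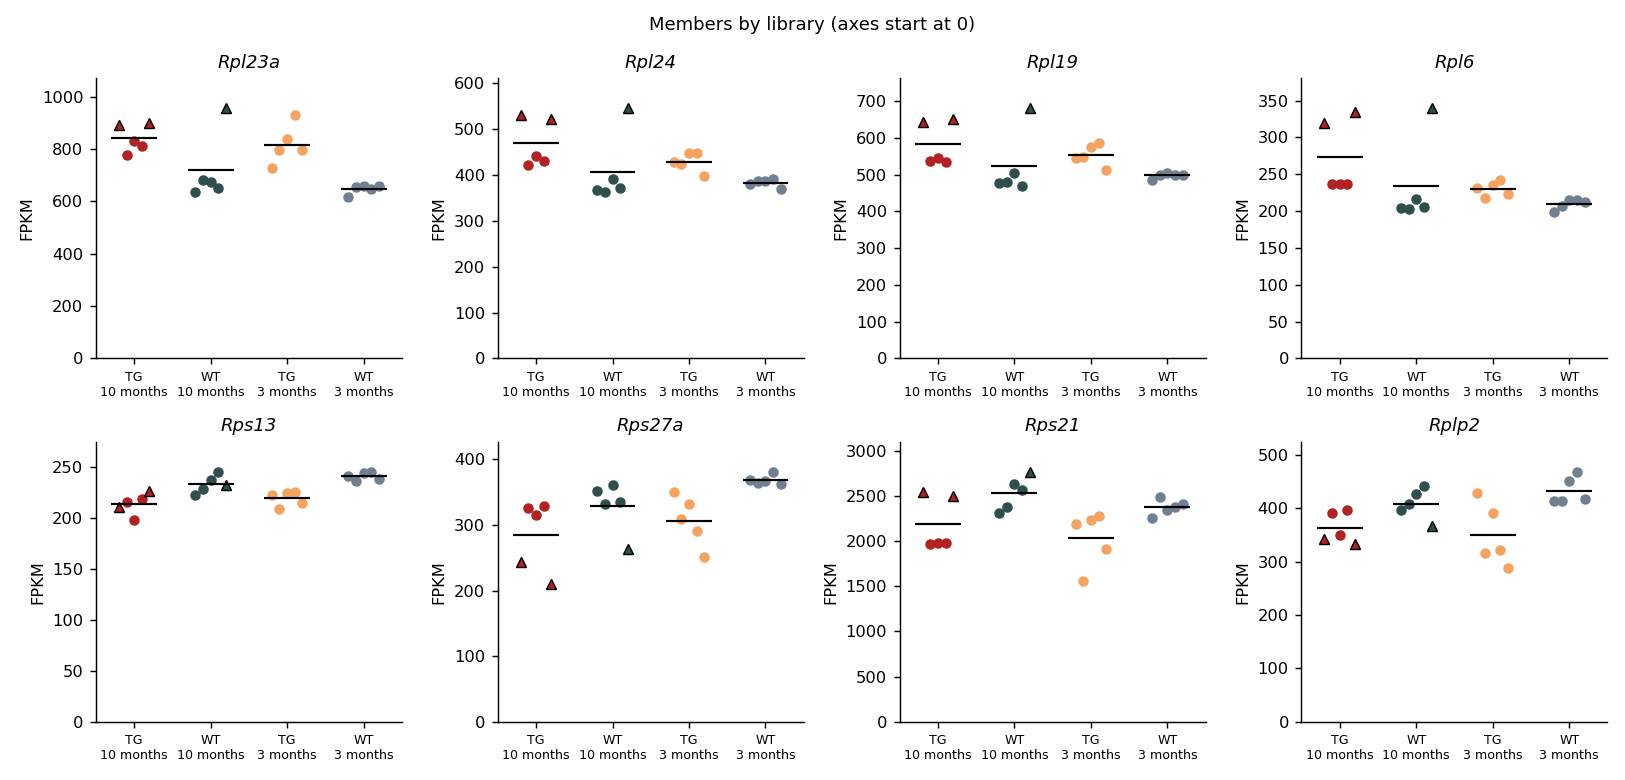
FPKM of 8 members in each library (axes from 0), by group, with bars for group means and outlined triangles for the 3 libraries apart. Circles of TG lie above circles of WT at both ages in Rpl23a, Rpl24, Rpl19 and Rpl6, and below them in Rps13; Rps27a of TG lies below that of WT at 3 months, where Rps21 and Rplp2 overlap at 3 months.

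The comparison of 10 with 3 months in WT cortex gave 0 called members of 88, against 0.0656% of all tested genes (limma), and 4 at an unadjusted p under 0.05, against 6.72%. The median difference, 10 months minus 3 months, was 0.037 over members, and -0.022 without replicate 5 of WT10M. Rpl3 (chr15:80077791-80091868), which lies beside the peptidyl transferase centre, had 456, 369, 394, 407 and 464 FPKM in WT10M, against 305, 357, 303, 308 and 391 FPKM in WT03M, a difference of 0.33 (SE 0.11, adjusted p = 0.466). The groups overlapped, and Rpl3 also differed between TG03M and WT03M by 0.26 (SE 0.11, adjusted p = 0.416). Rps27a was the 1 member without overlap, at 263 to 360.2 FPKM in WT10M and 362 to 381 FPKM in WT03M, against 0.794% of tested genes.

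In TG cortex, 10 against 3 months, 0 of 88 members were called, against 0.845% of all tested genes (limma), and 7 had an unadjusted p under 0.05, all higher in TG10M, against 16.1%. The difference was positive in 76 of 88 members with a median of 0.11, and the median was 0.031 without the 3 libraries apart, 2 of which are TG10M. Without the 7 libraries low in Hsp90aa1, which again leaves 1 library of TG03M, the direction turned: the difference was positive in 20 members and negative in 68, with a median of -0.051. Without the 3 libraries apart, 1 member was called, Rpl12, against 0.532% of all tested genes, and without the 7 libraries low in Hsp90aa1 1, Rpl26, against 0.0583%. Rps15a had 203, 189, 179.7, 170.0 and 191 FPKM in TG10M, against 184, 153, 173, 163 and 139 FPKM in TG03M, a difference of 0.20 (SE 0.066, adjusted p = 0.141). Rpsa (chr9:120127689-120132369), a small-subunit protein also known as the laminin receptor precursor, was at 215 to 252 FPKM in TG10M and 189 to 214 FPKM in TG03M, and was the 1 member whose groups did not overlap, against 1.84% of tested genes. The difference between the genotype effects at the 2 ages was tested as an interaction. It called 0 of 88 members, against 0.0364% of all tested genes (limma), and 2 members, Rps15 and Rps19bp1, had an unadjusted p under 0.05, against 5.04%. The lowest adjusted p of a member was 0.962.

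Members were also read by role. The stalk of the large subunit recruits translation factors and is made of Rplp0 and pairs of Rplp1 and Rplp2. Rplp0 (chr5:115559467-115563727) averaged 185 ± 21.2 FPKM in TG10M and 169.6 ± 26.8 FPKM in WT10M, and 159.9 ± 9.21 FPKM in TG03M and 163 ± 5.69 FPKM in WT03M (SD over libraries). Rplp1 (chr9:61913284-61914542), at 1551 FPKM over all libraries, had 1549.6, 1262, 1580.0, 1351 and 1169 FPKM in TG03M, against 1590.4, 1672, 1660.2, 1678 and 1538 FPKM in WT03M. Its difference was -0.24 (SE 0.081, adjusted p = 0.254) at 3 months and -0.10 (SE 0.081, adjusted p = 0.582) at 10 months. Rplp2 (chr7:141447370-141451585) had 429, 316, 391, 321 and 288 FPKM in TG03M, against 413, 414, 451, 468 and 417 FPKM in WT03M, a difference of -0.32 (SE 0.089, adjusted p = 0.156). At 10 months it had 342, 392, 349.9, 397 and 332 FPKM in TG10M, against 396, 408, 427, 441 and 367 FPKM in WT10M, a difference of -0.17 (SE 0.089, adjusted p = 0.393). For Rplp1 and Rplp2 the TG mean was lower at both ages and the ranges overlapped, while for Rplp0 the difference was 0.13 at 10 months and -0.033 at 3 months.

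Rpl5 and Rpl11 bind the 5S ribosomal RNA and, outside the ribosome, the p53 ligase Mdm2. Rpl5 (chr5:107900502-107909005) averaged 184 ± 20.6 FPKM in TG10M and 192 ± 24.0 FPKM in WT10M, and 168 ± 8.20 FPKM in TG03M and 184 ± 8.71 FPKM in WT03M. Rpl11 (chr4:136028265-136053428) averaged 324 ± 18.9 FPKM in TG10M and 333 ± 18.1 FPKM in WT10M, and 307 ± 21.6 FPKM in TG03M and 337 ± 13.04 FPKM in WT03M, with differences of -0.037 (SE 0.054, adjusted p = 0.782) and -0.14 (SE 0.054, adjusted p = 0.373). Rps6, the target of the S6 kinases (chr4:86854660-86857412), averaged 439 ± 50.3 FPKM in TG10M and 424 ± 69.4 FPKM in WT10M, and 397 ± 19.1 FPKM in TG03M and 397 ± 8.47 FPKM in WT03M. Its difference was 0.057 at 10 months and -0.00106 at 3 months. Rpl10 (chrX:74270812-74273135), added late in assembly of the large subunit, averaged 405 ± 56.6 FPKM in TG10M and 371 ± 94.7 FPKM in WT10M, and 371 ± 39.2 FPKM in TG03M and 332 ± 13.8 FPKM in WT03M. Rpl38 differed by 0.002 (SE 0.079, adjusted p = 0.992) at 10 months and by -0.059 (SE 0.079, adjusted p = 0.834) at 3 months. None of these passed the test.

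A few members took separate levels in different libraries, which set their group means. Rpl12, at the base of the stalk, is listed with a single transcript of 1242 bases. It was at 2.85 to 5.33 FPKM in the 7 libraries low in Hsp90aa1 and at 169.6 to 199 FPKM in the other 13. TG03M had 187, 5.18, 3.22, 3.65 and 2.85 FPKM, against 179.7, 173, 192, 185 and 181 FPKM in WT03M, a difference of -4.36 (SE 1.26, adjusted p = 0.177). TG10M had 3.61, 182, 182, 185 and 5.33 FPKM, against 176, 169.6, 199, 186 and 5.18 FPKM in WT10M. Within the 13 libraries with high Hsp90aa1, the difference was 0.0071 at 10 months and 0.041 at 3 months, where TG03M is then 1 library. The ribosome assembly genes Rrp1 and Rrp12 split in the same libraries. Rrp1 was at 1.32 to 3.02 FPKM in the 7 and 144 to 167 FPKM in the 13. Rrp12 was at 0.105 to 0.335 FPKM in the 7 and 10.6 to 12.9 FPKM in the 13. These 2 genes were named after their values were seen.

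Rps16 split along the 3 libraries apart, at 65.5 to 80.2 FPKM in them and 200.4 to 337 FPKM in the other 17. At 10 months it had 70.9, 249.5, 239.9, 238 and 80.2 FPKM in TG10M, against 294, 316, 329.8, 313 and 65.5 FPKM in WT10M, a difference of -0.59 (SE 0.40, adjusted p = 0.504). Rps2 (chr17:24718116-24721929), near the entry of the mRNA channel, lay at 63.7 to 73.4 FPKM in 6 libraries, at 201 to 225 FPKM in 8 libraries and at 348 to 410.5 FPKM in 6 libraries. The low level occurred in replicates 3, 4 and 5 of both TG03M and WT03M and in no 10-month library. Rps2 had 224, 355, 211, 209 and 385 FPKM in TG10M, against 348, 209, 222, 378 and 410.5 FPKM in WT10M, and 225, 201, 64.7, 66.9 and 63.7 FPKM in TG03M, against 377, 214, 69.6, 73.4 and 70.1 FPKM in WT03M. Its age difference was 1.35 (SE 0.46, adjusted p = 0.163) in TG and 1.28 (SE 0.46, adjusted p = 0.525) in WT. Rpl26 (chr11:68901583-68906989), which in human cells also promotes translation of p53 mRNA, was at 66.5 FPKM in replicate 1 of TG03M, at 343 to 424 FPKM in 12 libraries, at 502 to 573 FPKM in the 3 libraries apart and at 699 to 766 FPKM in 1 library of each group. Its difference between TG03M and WT03M was -0.61 (SE 0.42, adjusted p = 0.642). Rps3a1 (chr3:86137940-86142702) had 280.3, 246, 259.6, 246 and 369 FPKM in TG03M, against 278, 465, 473, 295 and 274 FPKM in WT03M, with replicates 2 and 3 of WT03M above the rest.

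**Figure D5:**
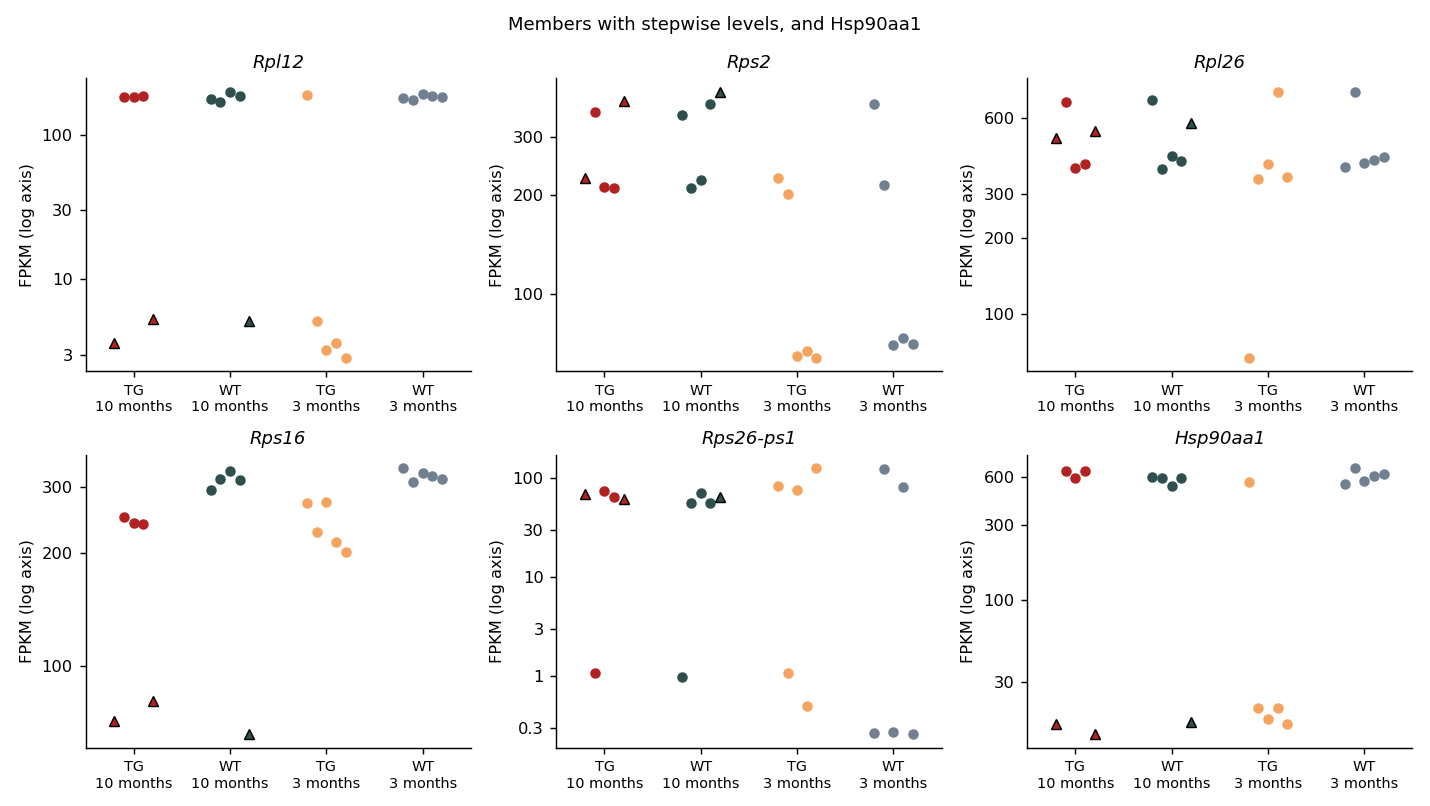
FPKM (log axes) of Rpl12, Rps2, Rpl26, Rps16 and Rps26-ps1 and, for comparison, Hsp90aa1 in each library, by group, with outlined triangles for the 3 libraries apart. Rpl12 is low in the same 7 libraries as Hsp90aa1, Rps16 is low in the 3 triangles, and Rps2 and Rps26-ps1 split without following the genotype.

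Reads of many members cannot be placed with certainty, because ribosomal protein genes have left processed copies across the mouse genome. Of the 50-base stretches of each subunit gene's main transcript, a median of 53.3% also occurred in a transcript of another gene in GENCODE M21, and 76 of 77 subunit genes shared at least 1. The share was 16.4% in the steady Rpl4, 49.0% in Rpl12, 79.0% in Rps2 and 82.6% in Rpl23a. Among other members described for differences between genotypes, it was 83.0% in Rps13, 81.7% in Rpl24, 79.3% in Rpl19 and 64.3% in Rpl6. It was lower in Rps16, at 40.1%, and in Rps21, at 26.4%. Values of members with a high share are uncertain to the extent that the counting split such reads. Rps26-ps1 (chr8:107439131-107439579), whose transcript shares 64.2% of its stretches, was at 0.259 to 1.09 FPKM in 7 libraries and at 55.3 to 126 FPKM in 13. In those 7 libraries its parent gene Rps26 was at 469 to 743 FPKM, and in the 13 at 305 to 499 FPKM. The 7 libraries came from all 4 groups (1 of TG10M, 1 of WT10M, 2 of TG03M and 3 of WT03M). The difference of Rps26-ps1 was 0.12 (SE 1.77, adjusted p = 0.98) at 10 months and 1.62 (SE 1.77, adjusted p = 0.785) at 3 months.

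Among the paralogs, Rpl22l1 (chr3:28805436-28807424), the relative of Rpl22, was nearly as high as it, at 196 FPKM against 227 FPKM in Rpl22 (chr4:152325742-152334071). Rpl22l1 had 203, 184, 184, 185 and 198 FPKM in TG10M, against 211, 209, 228, 204 and 224 FPKM in WT10M, with no overlap and a difference of -0.17 (SE 0.095, adjusted p = 0.41). At 3 months it had 213, 162, 192, 153 and 126 FPKM in TG03M, against 202, 195, 224, 218 and 204 FPKM in WT03M, a difference of -0.32 (SE 0.095, adjusted p = 0.184). Rpl22 differed by -0.062 (SE 0.058, adjusted p = 0.64) at 10 months and -0.13 (SE 0.058, adjusted p = 0.426) at 3 months. Rpl36al (205 FPKM) stood beside Rpl36a (397 FPKM), and Rpl7l1 (19.9 FPKM) beside Rpl7 (279 FPKM). The muscle paralog Rpl3l, at 0.129 FPKM, and the testis paralogs Rpl39l and Rpl10l, at 0.118 and 0.00206 FPKM, were below the level tested.

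Of the 17 members with pseudogene symbols, 5 reached the level tested and 6 were listed at 0 in every library. After Rps26-ps1, the highest were Rpl9-ps6, at 11.1 FPKM, Rps12-ps3, at 3.61 FPKM, and Rpl10-ps3, at 2.28 FPKM. Rps12-ps3 had 4.54, 2.27, 2.69, 3.54 and 4.95 FPKM in TG10M, against 5.87, 3.03, 6.25, 4.43 and 3.88 FPKM in WT10M, a difference of -0.35 (SE 0.28, adjusted p = 0.587). The groups overlapped. Rpl10-ps3 had 1.62, 1.79, 2.73, 2.60 and 3.88 FPKM in WT10M, against 1.01, 2.92, 1.65, 1.27 and 1.95 FPKM in WT03M, a difference of 0.43 (SE 0.32, adjusted p = 0.884). Rpl28 (chr7:4792874-4795066), a subunit gene among the members with the largest age differences, had 139, 246, 204, 218 and 143 FPKM in TG10M, against 224, 262, 184, 179 and 189.6 FPKM in TG03M. Replicates 1 and 5 of TG10M, both among the 3 libraries apart, hold its lowest values of that group.

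Rps27 has a relative with a distinct sequence and one without. Their first 60 coding bases are shown to compare them, with capitals for bases of Rps27l that differ from Rps27 (GENCODE M21, GRCm38).
Rps27 (chr3:90212671-90213651, minus strand): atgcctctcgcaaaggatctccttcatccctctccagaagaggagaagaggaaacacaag
Rps27l (chr9:66946086-66949512, plus strand): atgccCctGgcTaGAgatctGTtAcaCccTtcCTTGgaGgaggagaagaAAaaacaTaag
Of the 255 coding bases, 61 differ between Rps27l and Rps27, while Rps27rt (chr9:114982366-114982739, minus strand) has the same coding bases as Rps27. Rps27l, a p53 target in human cells, was at 49.8 to 62.1 FPKM in TG10M, 46.1 to 58.0 FPKM in WT10M, 48.0 to 54.8 FPKM in TG03M and 49.6 to 61.2 FPKM in WT03M, with overlap throughout. Rps27rt averaged 1.08 FPKM, differed by -0.53 (SE 0.46, adjusted p = 0.72) between TG03M and WT03M, and its few fragments cannot be told from those of Rps27 within the coding sequence. Rps27 had 3348, 2148, 2508, 2429 and 3622 FPKM in TG10M, against 2481, 2519.6, 2768, 2665 and 3818 FPKM in WT10M, and 2351, 1744, 2775, 3562 and 2625 FPKM in TG03M, against 2236, 2646, 2469, 2355 and 2396 FPKM in WT03M. The groups overlapped at both ages.

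Transcripts were tested in the same model, an analysis added after the values were seen. Of 170 tested transcripts of members, 1 was called at 10 months, against 0.174% of 24698 tested transcripts, (limma). None was called at 3 months, against 0.0891%, in WT with age, against 0.00405%, in TG with age, against 0.194%, or in the interaction, against 0.0121%. The called one, ENSMUST00000166693 of Rps28, was listed at 4.01, 4.15, 6.99 and 1.91 FPKM in replicates 2 to 5 of WT10M and at under 0.001 FPKM in the other 16 libraries, beside 949.9 FPKM for the whole gene. Rps24 has a minor transcript, ENSMUST00000169826, with a 20-base exon that holds the stop codon (capitals).
Rps24 exon (chr14:24495430-24495449, plus strand): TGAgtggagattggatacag
This transcript had 14.1, 9.76, 11.4, 13.4 and 12.1 FPKM in TG10M, against 9.13, 7.87, 7.22, 8.90 and 8.68 FPKM in WT10M. At 3 months it had 7.85, 5.61, 7.20, 7.47 and 6.48 FPKM in TG03M, against 4.90, 8.50, 7.91, 4.48 and 8.71 FPKM in WT03M. Every TG10M library lay above every library of the other groups. This transcript was named after its values were seen, and the share of all tested transcripts with such a gap was not counted. The difference at 10 months was 0.51 (SE 0.16, adjusted p = 0.263), and between TG10M and TG03M it was 0.77 (SE 0.16, adjusted p = 0.0522), neither past the threshold. As a share of this transcript and the main one, it was 1.64 ± 0.225% in TG10M, 1.07 ± 0.162% in WT10M, 0.960 ± 0.111% in TG03M and 0.942 ± 0.264% in WT03M (SD over libraries).

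Genes that work with the ribosomal proteins were read from lists. Fau, which encodes a small-subunit protein as a fusion with a ubiquitin-like protein, was not called at either age and differed by -0.11 (SE 0.047, adjusted p = 0.283) at 10 months. Of 19 tested translation factors and other genes with TOP mRNAs, 0 were called, with a median difference of 0.02 at 10 months and -0.002 at 3 months, and Eef1b2, a subunit of elongation factor 1, had the smallest p at 10 months at -0.18 (SE 0.065, adjusted p = 0.219). Among 28 initiation factor genes 0 were called (median -0.0029 at 10 months and -0.038 at 3 months), and Eif5, which acts in start codon selection, differed by -0.22 (SE 0.091, adjusted p = 0.285). Among 47 ribosome biogenesis genes 0 were called (median -0.0087 at 10 months and -0.034 at 3 months). Of these, Bop1, a factor of large-subunit rRNA processing, differed by 0.15 (SE 0.051, adjusted p = 0.186) and Ncl, nucleolin, by -0.31 (SE 0.11, adjusted p = 0.214). Among 30 genes of mTORC1, S6 kinase and 4E-BP signalling 0 were called, and Lamtor5, a subunit of the Ragulator complex, differed by -0.23 (SE 0.07, adjusted p = 0.155) and Eif4ebp1, a translation repressor, by 0.46 (SE 0.16, adjusted p = 0.183). Among 10 genes of the p53 response 0 were called, with Mdm4, a p53 inhibitor, at -0.19 (SE 0.072, adjusted p = 0.244). Among 77 mitochondrial ribosomal protein genes 0 were called at 10 months and 1, higher in TG03M, at 3 months (median 0.053 at 10 months and -0.016 at 3 months). The unadjusted p was under 0.05 at 10 months in 3, 1, 4, 6, 2 and 9 genes of these 6 lists in the order given, against 14.1% of all tested genes.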

How the data were processed

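Total RNA of frozen cortex, with an RNA integrity number above 7, was sequenced in 20 libraries, per the labels. The submitters' processing notes name CASAVA, TopHat2, Cuffdiff and DESeq2 and the builds GRCm38 and mm10. Which step each served, and its version, is not given in the sources used here. Values were deposited as FPKM per transcript, scaled by the authors to transcript length and mapped fragments, and hold no read counts. Here they were summed per gene ID. Genes with a mean of at least 0.5 FPKM (13722) were fitted as log2(FPKM + 0.5) in limma 3.58.1 (R 4.3.3; lmFit, contrasts.fit and eBayes with a trend, two-sided), with 1 mean per group over all 20 libraries and 16 residual degrees of freedom. Calls have a Benjamini-Hochberg adjusted p under 0.05 over all genes tested. No libraries of a group were copies, with at most 0.0271% identical values. On simulated data with independent values, the fit called 88 to 99 of 100 genes changed by 1 and 59 to 76 of 100 changed by 0.5 over the 5 comparisons.

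Depth was estimated from the spacing of low values in genes with 1 transcript of over 4000 bases, where at least 75% of values lay within 0.1 of a whole multiple. Shared sequence was counted in 50-base stretches of GENCODE M21 transcripts with Python 3.11.15; counting intervals cover counting error only. The members and gene lists were chosen with earlier results of these data known. The genes named are the called members, the 3 largest differences in each direction per comparison, the highest, lowest, steadiest and most variable members, paralogs, members with known roles and up to 2 genes per list with the smallest p; others, such as the Rps24 transcript, were named after their values were seen. The FPKM tables of non-coding and uncertain transcripts were not used here. Some members and listed genes are not reported here. Alternatives are given in the closing section.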

Additional observations from a re-analysis of the deposited data

Results flagged for a closer look

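Among the 46 members examined in the 4 groups (184 groups of 5 values), 23 held a library far from the other 4 by Dixon's criterion (gap over range above 0.71), which chance alone gives in about 1 group in 20. Some of these members were named for large differences or variation in these data, and flags that share a library are not independent. The count is therefore no test against that rate. Most lay in replicate 5 of WT10M, one of the 3 libraries apart. There 13 members were far above the other WT10M libraries: Rpl23a at 956 FPKM, Rpl24 at 545 FPKM, Rpl19 at 679.9 FPKM, Rpl6 at 339 FPKM, Rps27 at 3818 FPKM, Rplp0 at 216 FPKM, Rpsa at 285 FPKM, Rps6 at 547 FPKM, Rpl10 at 539 FPKM, Rps20 at 42.3 FPKM, Rpl7l1 at 22.4 FPKM, Rpl7 at 358 FPKM and Rpl9 at 1028 FPKM. In the same library Rpl12, at 5.18 FPKM, and Rps16, at 65.5 FPKM, were far below them.

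In TG03M, Rpl12 was at 187 FPKM in replicate 1, against 2.85 to 5.18 FPKM in the other 4. In the same group Rps3a1 was at 369 FPKM in replicate 5, against 246 to 280.3 FPKM in the other 4, and Rpl21 at 291 FPKM in replicate 4, against 364 to 389 FPKM in the other 4. In WT03M, Rpl26 was at 766 FPKM in replicate 2, against 386 to 421 FPKM in the other 4, Rpl23a at 617 FPKM in replicate 1, against 649 to 661 FPKM in the other 4, and Rpl21 at 335 FPKM in replicate 5, against 230.4 to 251 FPKM in the other 4. Rps26-ps1 was at 1.07 FPKM in replicate 2 of TG10M, against 60.9 to 73.1 FPKM in the other 4, and at 0.981 FPKM in replicate 1 of WT10M, against 55.3 to 69.9 FPKM in the other 4.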

How the results depend on the processing

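No member was called at either age, in either age comparison or in the interaction with other pseudocounts, filters on low values, median centring, quantile normalization, a robust prior, the top transcript of each gene or the replicate block. Members called at 10 months, TG10M against WT10M, numbered 5 with array weights, 5 without the 3 libraries apart, 7 without the 7 libraries low in Hsp90aa1 and 1 over every transcript, and 0 to 10 with 1 replicate left out. At 3 months, TG03M against WT03M, they numbered 4 with the compared groups alone, 3 with array weights, 12 without the 3 libraries apart and 1 without the 7, where TG03M keeps 1 library assumed to vary like the others, and 0 to 4 with 1 replicate left out. For TG10M against TG03M, 1 was called without the 3 and 1 without the 7. Shares of all tested genes called at 10 months were 6.89% with array weights, 2.38% without the 3 and, over every transcript, 0.174% of tested transcripts. At 3 months they were 1.61% with the compared groups alone, 1.90% with array weights and 3.45% without the 3. In TG with age the share without the 3 was 0.532%. Shares for the fits without the 7 are given above. Leaving out replicate 5 of WT10M gave the 10, against 11.7% of all tested genes. Leaving out replicate 1 of TG03M gave the 4 at 3 months, against 0.787%. The cause was not tested. Over the members with the largest differences, 979 of 1010 alternative values kept direction and call, 17 gained a call and 14 turned direction. The Rpl12 difference turned without the 3 libraries apart, to 0.0071 at 10 months and 0.0004 in WT with age, where it ranged from -1.28 to 0.0004 with 1 replicate left out, turning without replicate 5 of WT10M. Without the 7 it was 0.0071 at 10 months, 0.041 at 3 months, 0.0004 in WT with age, -0.033 in TG with age and -0.033 in the interaction. In TG with age and without the 3, Rps16 was 0.043 and Rpl28 0.11; Rps26-ps1 ranged from -0.079, without replicate 4 of TG03M, to 2.02 with 1 replicate left out, and was -2.08 without the 7. Rps27rt was 0.18 at 3 months and -0.52 in the interaction without the 7. With the replicate block 72, 44, 5, 94 and 6 genes were called in all, against 87, 41, 9, 116 and 5 without it, and 0 members in each. Of 30 pairs of same-numbered libraries 5 had deviations correlated over 0.1, 3 of them between TG10M and WT10M, with a range of -0.42 to 0.66 over all pairs, and the labels state no link between equal numbers. The libraries were therefore not treated as paired. The data are FPKM, so counting error is known from the depth estimate alone.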
